A study of Homo sapiens with 12 samples.

Results

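Nuclear long non-coding RNAs (lncRNAs) and the core proteins of paraspeckles were examined in A549, a human cell line established from a lung adenocarcinoma. The 6 genes were taken from the table by symbol: the lncRNAs MALAT1, NEAT1 and TUG1, and the protein genes SFPQ, NONO and PSPC1. Each symbol had 1 row among the 22564 gene rows of the table used here, and all 6 had a value. Total RNA had been sequenced from 6 libraries of cells transfected with small interfering RNA against YTHDC1 (siYTHDC1), the nuclear reader of the RNA mark N6-methyladenosine (m6A), and from 6 libraries transfected with a scramble sequence (siSCR), at 40 nM for 48 to 72 h. Both groups are the same cell line, and the labels name no other treatment of these libraries. The value given for each gene is the authors' mean of normalised read counts over all 12 libraries. It pools siYTHDC1 with siSCR, so the levels below hold for the 2 groups together, and neither a difference between them nor the depletion of YTHDC1 itself can be read from it. It carries no spread between libraries, so no value below has an error, and no order among the genes was tested.

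Paraspeckles are nuclear bodies that assemble on the long form of NEAT1. SFPQ, NONO and PSPC1 belong to the DBHS family (Drosophila behaviour and human splicing), RNA-binding proteins that pair with each other and coat this RNA. MALAT1 lies in nuclear speckles, the bodies that store splicing factors, and is not part of the paraspeckle. TUG1 is a spliced lncRNA with a large nuclear pool. MALAT1 and the long form of NEAT1 do not end in an ordinary poly(A) tail: RNase P, better known for maturing transfer RNAs, cuts their 3′ ends, and a triple helix of U-rich and A-rich stretches protects the cut end. Ribosomal RNA removal, used for these libraries in place of poly(A) selection, keeps such RNAs.

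The stretches that form this helix are shown first, since MALAT1 and NEAT1 were the most abundant RNAs of the group and carry the same words there. Each run is 100 bases long, written 5′ to 3′ on the plus strand of GRCh37, and ends at the last base of the A-rich stretch. The MALAT1 run is chr11:65273488-65273587 and the NEAT1 run is chr11:65212912-65213011. Capitals mark the word TTTTGCTTT from the U-rich side and the word AAGCAAAA from the A-rich side.
MALAT1: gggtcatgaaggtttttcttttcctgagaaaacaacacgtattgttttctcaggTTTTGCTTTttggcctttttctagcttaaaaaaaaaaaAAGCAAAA
NEAT1: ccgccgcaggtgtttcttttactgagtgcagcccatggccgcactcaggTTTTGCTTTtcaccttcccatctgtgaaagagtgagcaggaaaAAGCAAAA

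The longest run of bases that both ends share is CTCAGGTTTTGCTTTT, 16 bases long, and the next outside it is AAAAAGCAAAA, 11 bases long and the last bases of each. The NEAT1 run closes its longest annotated transcript, with 0 bases after it. In MALAT1 the longest annotated transcript goes on for 1957 bases past the run. The words were picked after these ends had been read, so their match in these RNAs is a description. The search took the transcript strand alone and asked for the U-rich word wholly upstream of the A-rich word. Copies of the A-rich word could overlap each other. In this order, both words within 100 bases occurred in 17 of 21798 longest transcripts (0.0780%). The other 15 genes had mean normalised read counts up to 2478, and 1 of the 17 transcripts ended with the A-rich word, that of NEAT1. A match does not show that a helix forms.

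MALAT1 and NEAT1 were among the 3 rows with the largest means. MALAT1 (ENSG00000251562.3, chromosome 11, 65265111 to 65275544, plus strand, GRCh37) had a mean normalised read count of 147536 over the 12 libraries. This was the largest of all 22564 rows and 1.29% of their summed means. NEAT1 (ENSG00000245532.4, chromosome 11, 65190245 to 65213011, plus strand) had a mean of 63424, the third largest, after the mitochondrial MT-CO1, and 0.554% of the sum. Together the RNAs held 1.84% of all normalised reads, and 56.9% of those on the 3986 rows that the reference annotation types as lncRNA. The next lncRNA row, RPPH1, the RNA of RNase P, had a mean of 5256.

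Read counts grow with gene length, so levels were set side by side per kilobase of annotated exon. MALAT1 reached 14140 mean normalised counts per kilobase over 10434 exonic bases, place 12 of 21798 genes with a length and place 1 of the 3986 lncRNA rows. Its exonic bases include the 1957 past the A-rich stretch. NEAT1 reached 2786 per kilobase over 22767 bases, place 71 of all and place 3 of the lncRNAs. The ratio of MALAT1 to NEAT1 was 5.08 per kilobase. Among the 18938 genes with at least 500 exonic bases, a limit added after seeing the data, MALAT1 was at place 9 and NEAT1 at place 58. The median was 32.2 per kilobase over all genes and 7.44 over lncRNA rows.

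TUG1 stood far below. TUG1 (ENSG00000253352.4, chromosome 22, 31365231 to 31375381, plus strand) had a mean of 1620, or 160 per kilobase over 10151 exonic bases, place 3321 of 21798. Per kilobase of exon, NEAT1 was 17.5 times and MALAT1 88.6 times as high, and over the other lengths tried below these ratios ran from 12.9 to 49.96 and from 65.2 to 196. TUG1 is spliced, with 3 exons in its longest annotated transcript, whereas the longest transcripts of MALAT1 and NEAT1 are single exons. The reference annotation used here types TUG1 as protein-coding, so it is not counted among the lncRNA rows.

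The transcripts of the paraspeckle proteins ranked in the order SFPQ, NONO, PSPC1. SFPQ (ENSG00000116560.6, chromosome 1, 35641979 to 35659047, minus strand), which also works in splicing, had a mean of 5298, or 686 per kilobase of exon, place 430 of 21798. NONO (ENSG00000147140.11, chromosome X, 70474664 to 70521372, plus strand), its usual partner, had a mean of 4169, or 371 per kilobase, place 1048. PSPC1 (ENSG00000121390.13, chromosome 13, 20248892 to 20357159, minus strand), which is dispensable for the body in cultured cells, had a mean of 553, or 115 per kilobase, place 4779. SFPQ was 1.85 times as high as NONO and 5.98 times as high as PSPC1 per kilobase, and NONO 3.24 times as high as PSPC1. The gene total of NEAT1, both forms together, was 4.06 times as high as SFPQ, 7.50 times as high as NONO and 24.3 times as high as PSPC1 per kilobase of exon. These are transcript levels and say nothing of protein amounts.

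**Figure D1:**
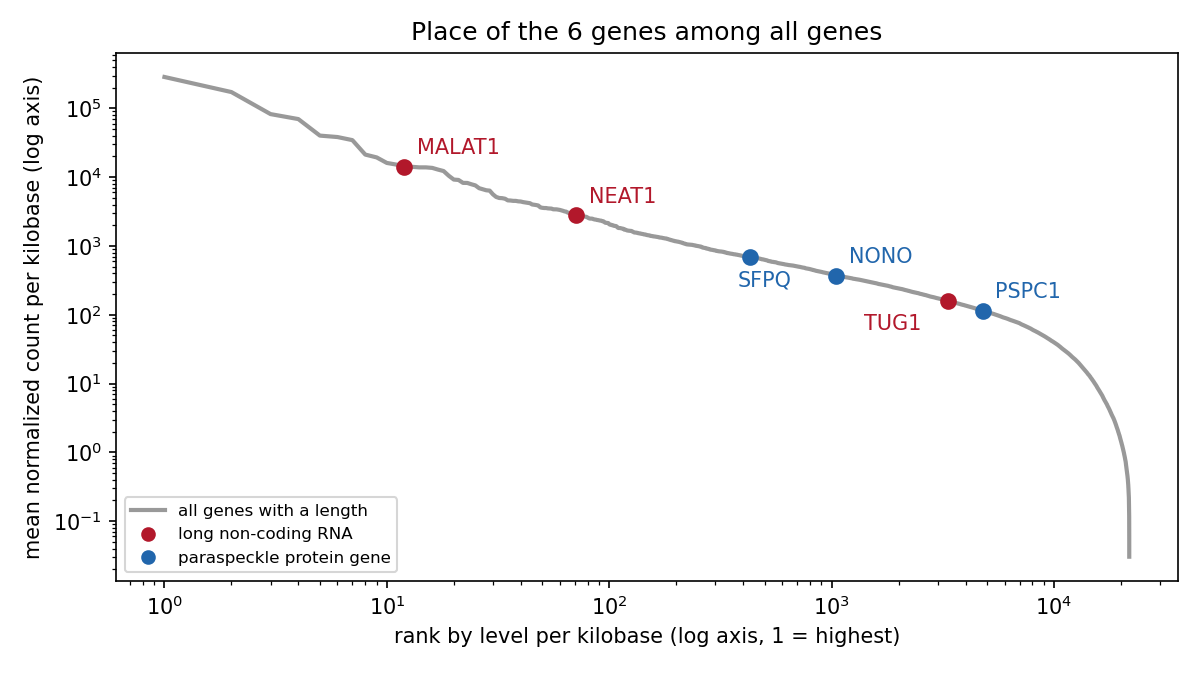
Mean normalised count per kilobase of exon (y axis, log) against rank (x axis, log, 1 is the highest) for 21798 genes (grey line), with the lncRNAs as red points and the paraspeckle protein genes as blue points. MALAT1 at 14140 and NEAT1 at 2786 lie near the top, SFPQ and NONO follow at 686 and 371, and TUG1 and PSPC1 lie at 160 and 115.

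Part of this order rests on the length chosen. With the longest annotated transcript in place of all exons, SFPQ stood at 1311, NONO at 852, PSPC1 at 227 and TUG1 at 217 per kilobase, so PSPC1 and TUG1 changed places. With the canonical transcript of the annotation, a choice made after seeing the data, NONO stood at 1567 and SFPQ at 1416, so these changed places too. NONO has 40 annotated transcripts, and its exons together cover 11222 bases against 2661 in the canonical transcript. MALAT1 and NEAT1 kept the first and second place under each of the 4 lengths, with a ratio of MALAT1 to NEAT1 between 3.92 and 5.08. For MALAT1 the exonic, longest and canonical lengths are all 10434 bases and include the 1957 past the A-rich stretch. No level was computed for a MALAT1 that ends at that stretch, so this range does not cover it. Over the 4 lengths the gene total of NEAT1 was 1.97 to 4.06 times as high as SFPQ, 1.78 to 12.7 times as high as NONO and 12.3 to 58.3 times as high as PSPC1. The ratio of SFPQ to NONO ran from 0.904 to 5.05, that of SFPQ to PSPC1 from 5.77 to 23.2, and that of NONO to PSPC1 from 3.24 to 6.90.

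**Figure D2:**
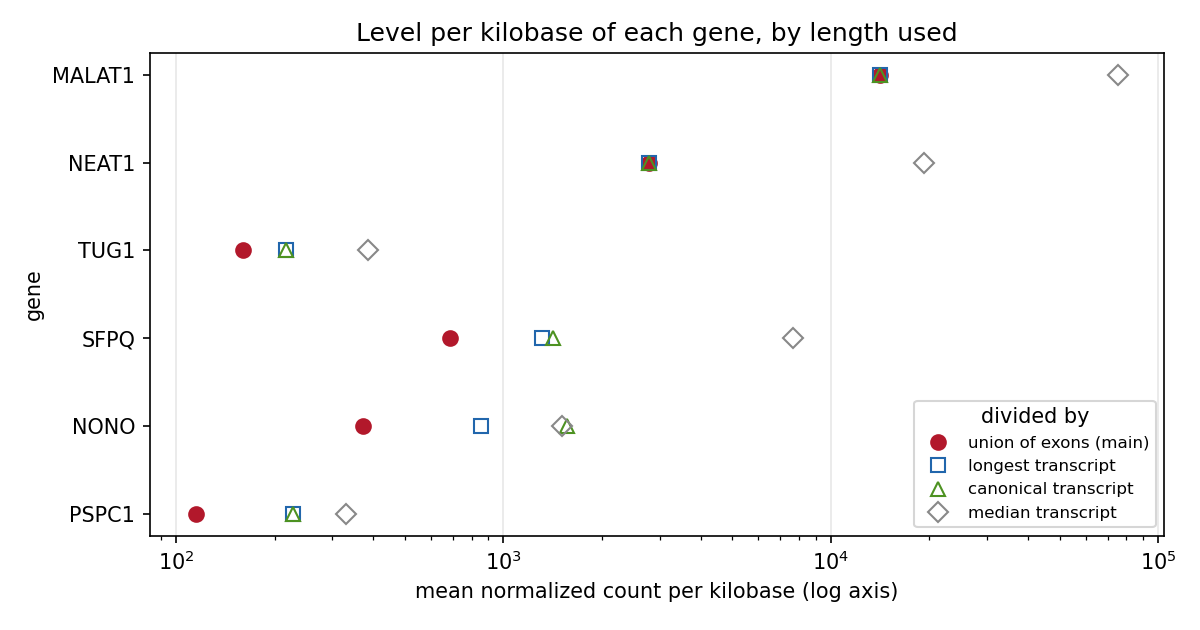
Mean normalised count per kilobase (x axis, log) of each gene (y axis) when the authors' mean is divided by the union of exons (red circles), the longest transcript (blue squares), the canonical transcript (green triangles) or the median transcript length (grey diamonds). MALAT1 and NEAT1 give 14140 and 2786 to 2789 per kilobase under the first 3, and 75312 and 19219 under the median transcript length. NONO spans 371 to 1567.

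NEAT1 has a short and a long form that begin at about the same place, and a gene total cannot separate them. The annotation holds 9 transcripts, of which 1 runs to the far end and the others lie in the first 3740 bases (16.4% of the exonic length). The remaining 19027 bases belong to the long form only. If every read came from the long form, the level would be 2789 per kilobase, and if every read came from the first 3740 bases it would be 16958 per kilobase. The level of each form was not measured here, and only the long form builds paraspeckles, so the level of the scaffold itself beside SFPQ, NONO and PSPC1 is not known from these values.

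NEAT1 and MALAT1 are neighbours on chromosome 11, on the same strand and 52.1 kilobases apart. Within 15 kilobases of the pair, FRMD8 upstream of NEAT1 had a row, at 145 per kilobase, and is named for its position only. Between the pair the pseudogene AP000769.1 had a row, at 112 per kilobase and a mean of 23.3. Both were far below the lncRNAs.

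**Figure D3:**
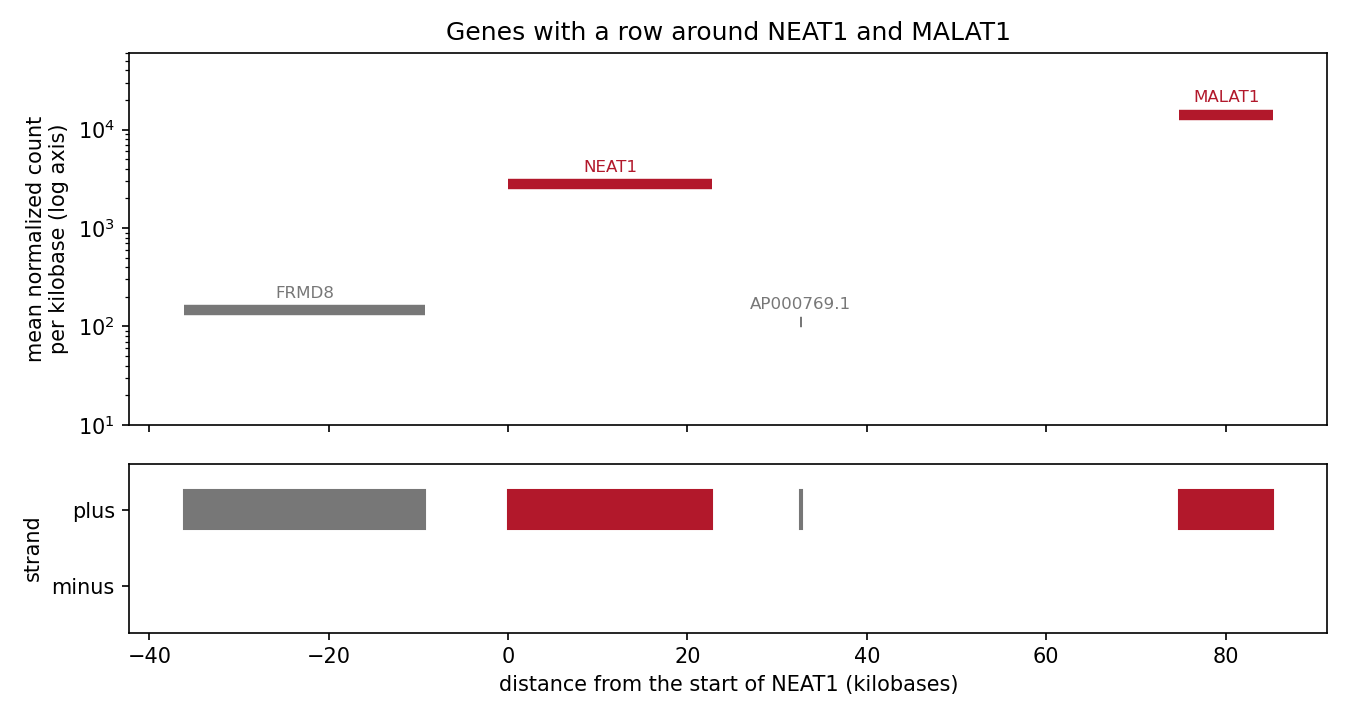
Genes with a row within 15 kilobases of NEAT1 and MALAT1 or between them, by distance from the start of NEAT1 in kilobases (x axis). The upper panel gives the mean normalised count per kilobase (y axis, log) as a bar as long as the gene, and the lower panel its strand. NEAT1 at 2786 and MALAT1 at 14140 (red) stand above FRMD8 at 145 and AP000769.1 at 112 (grey).

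Genes on the opposite strand limit some of these values, since the sources used here do not say whether reads were counted by strand. TALAM1, the antisense RNA of MALAT1, covers 77.8% of the exonic bases of MALAT1 and had no row of its own, so without strand its reads would be part of the MALAT1 value. A further antisense lncRNA overlaps 5.85% of MALAT1, and 2 such genes overlap 2.60% and 5.38% of TUG1, all with no row. NONO shares 187 bases (1.67%) with ZMYM3 on the opposite strand, which had a mean of 892, and 316 bases (2.82%) with the pseudogene AL590762.1 on its own strand, with no row. PSPC1 shares 36 bases with the antisense gene PSPC1-AS2, which had a mean of 2.42. In the reference annotation used here, the exons of NEAT1 and SFPQ overlapped those of no other gene. Overlaps in GENCODE release 19, on which the authors counted reads, were not examined. The part of reads from overlapping genes in the values was not tested.

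Transcripts of other proteins found in paraspeckles were set beside those of the DBHS proteins. All 27 listed genes had a row, and 26 had a length, with a median of 290 per kilobase (lowest 33.2, highest 1265), against 32.2 over all genes. The highest were HNRNPK (1265), which takes part in choosing the long form of NEAT1, HNRNPF (1193) and HNRNPUL1 (1116), all RNA-binding proteins of the hnRNP group. SFPQ was lower than 6 and higher than 20 of the 26, NONO was lower than 8 and higher than 18, and PSPC1 was lower than 21 and higher than 5. Per kilobase of exon, SFPQ and NONO thus lay in the upper part of this list and PSPC1 in the lower. No other length was applied to the list, so whether these places hold under another length was not tested.

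The 14 listed genes for proteins of the nuclear speckle, where MALAT1 lies, all had a row. Their transcripts had a median of 389 per kilobase (lowest 172, highest 1047), led by the splicing factors SRSF2 (1047) and U2AF2 (1018) and the scaffold protein SRRM2 (983). MALAT1 was above each of them at 14140 per kilobase of exon, and PSPC1 below each at 115. This list too was compared with the exonic length alone.

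RNA levels were also read for genes of RNase P, which cuts the ends shown above, and of RNase Z. Of 12 genes of RNase P and RNase Z, 11 had a row, with a median of 131 per kilobase, and RPP21 had none. RPPH1, the catalytic RNA, reached 8239 per kilobase, place 23 of 21798, which is second to MALAT1 and above NEAT1 among lncRNA rows. The protein subunit POP7 had 330, and ELAC2, the RNase Z that trims the small RNA released from MALAT1, had 274. The remaining subunits lay between 50.4 and 169.

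Per kilobase of exon, TUG1 was above most other listed lncRNAs, and MALAT1 and NEAT1 were above all of them. Of 21 listed genes 18 had a row and 17 a length, with a median of 47.7 per kilobase (lowest 1.22, highest 757). The highest were LINC00657, also named NORAD, which binds Pumilio proteins in the cytoplasm (757), and the small nucleolar RNA hosts SNHG1 (405) and GAS5 (299), which exceeded TUG1 at 160. By mean count with no length, LINC00657 (4090) was still above TUG1 (1620), while SNHG1 (1611) and GAS5 (1473) were below it. The place of TUG1 in this list thus depends on length, and only the exonic length was applied to the list. LINC-PINT, FIRRE and CDKN2B-AS1 had no row under these symbols.

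**Figure D4:**
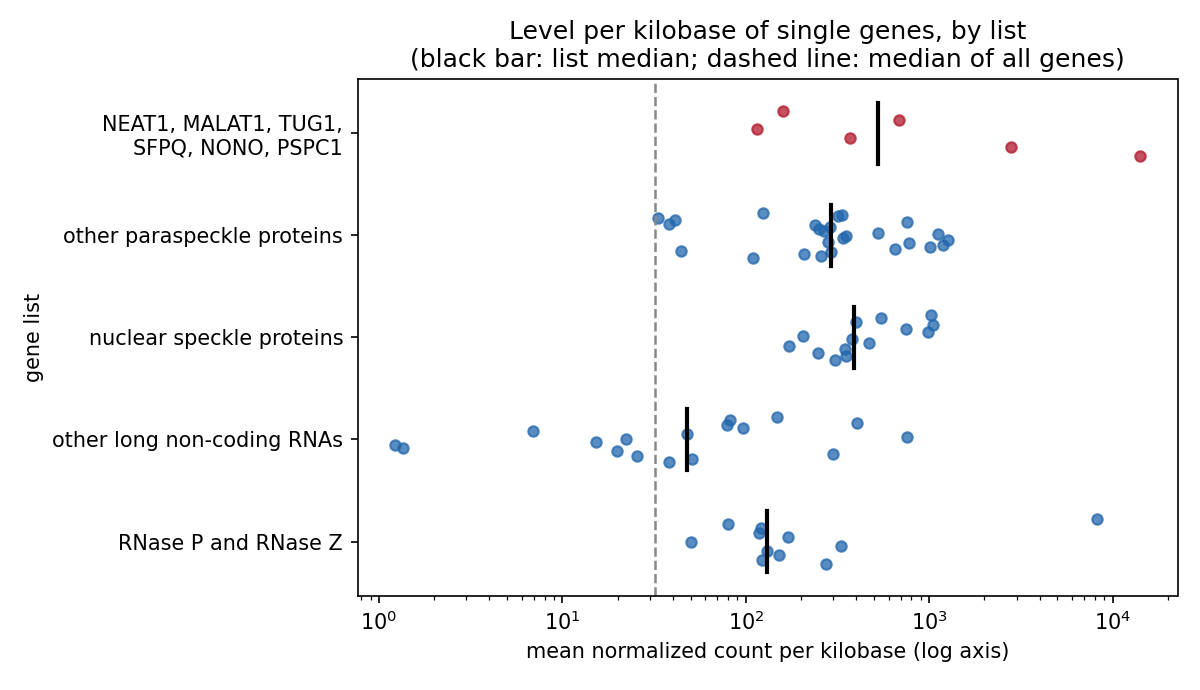
Mean normalised count per kilobase of exon (x axis, log) of single genes (points) by gene list (y axis), with the list median as a black bar and the median of all genes, 32.2, as a dashed line. MALAT1 at 14140 is the highest point and RPPH1 at 8239 the next, and the list medians lie at 290 for other paraspeckle proteins, 389 for nuclear speckle proteins, 47.7 for other lncRNAs and 131 for RNase P and RNase Z.

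YTHDC1 reads m6A, which is most often set in the word GGACT or around its core GGAC, so these words were counted in the longest transcript of each gene, on the transcript strand. MALAT1 held 17 copies of GGACT, or 1.63 per kilobase, a higher density than 84.8% of 16599 transcripts of at least 1000 bases (median 0.918) and than 82.3% of the 2160 lncRNAs among them. NONO followed with 7 copies, 1.43 per kilobase, denser than 78.0% of transcripts. TUG1 (7 copies, 0.937 per kilobase), NEAT1 (19 copies, 0.835) and SFPQ (3 copies, 0.742) lay near the median. PSPC1 held 1 copy, 0.411 per kilobase, with 15.2% of transcripts below it.

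The core GGAC alone, which includes every GGACT, gave another order. MALAT1 had 25 copies, 2.40 per kilobase, above 25.3% of transcripts, and NEAT1 had 58 copies, 2.55 per kilobase, above 28.9%. MALAT1 was therefore dense in the full word and not in its core. SFPQ was the sparsest at 1.73 per kilobase, above 11.2%, and PSPC1 had the highest density of the 6 genes, 3.70 per kilobase, above 54.0%, where the median over transcripts was 3.49. Only the longest transcript of each gene was searched, so these densities could differ in other transcripts. For MALAT1 it includes the 1957 bases past the A-rich stretch, and for NONO it has 4895 bases against 2661 in the canonical transcript. A word is a description of the sequence, and whether any copy carries m6A in these cells was not measured here.

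The densest window of the word in MALAT1, the RNA with the highest density, is shown to give its setting. It is the first of 50 bases that holds the most copies, with GGACT in capitals, written 5′ to 3′ on the plus strand of GRCh37, at chr11:65267796-65267845.
MALAT1: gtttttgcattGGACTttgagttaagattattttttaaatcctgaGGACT

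The window held 2 copies, which 12.9% of 21797 transcripts reach somewhere, so such a pair is common.

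The identity of the cells was checked with marker genes. Keratins of simple epithelium were high (KRT18 at 4858, KRT7 at 4280 and KRT8 at 4011 per kilobase), CDH1 stood at 166 and EPCAM was below the median of all genes at 24.0. Of 8 markers of blood, endothelial and muscle cells, 2 had a row, CDH5 with a mean of 7.19 and MYH11 with a mean of 5.06. YTHDC1 had a mean of 232, or 33.0 per kilobase, place 10798 of 21798, over siYTHDC1 and siSCR libraries together. Per kilobase of exon, the 6 genes stood between 3.48 (PSPC1) and 429 (MALAT1) times as high as this pooled YTHDC1 level. These ratios use the exonic length alone and hold for neither group by itself, since siYTHDC1 libraries enter the YTHDC1 level.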

How the data were processed

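Total RNA of A549 cells was sequenced from 6 siYTHDC1 and 6 siSCR libraries, after DNase treatment and ribosomal RNA removal, with a stranded kit. The authors used STAR for alignment (hg19), HTSeq and GENCODE release 19 for gene counts, and DESeq2, with a term for sequencing batch, for their comparison. The sources used here do not say which library belonged to which batch. The deposited table has 1 row per gene. Its signal column is the authors' mean of counts, normalised by size factors, over all libraries; these means sum to 11445536. Its other columns hold the authors' own comparison of siYTHDC1 with siSCR (fold change, error, statistic, p-values), and were not used. The table has no column per library, so the test planned for counts per library was not run, and the depth of each library cannot be read from it.

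Gene IDs were matched without version numbers to GENCODE release 44 mapped to GRCh37, the same build (21798 of 22564, 96.6%). The gene coordinates, types and exon overlaps given here come from release 44, while the versioned IDs are the authors'. Its exon models were not compared with those of release 19, which could change a length, a position or an overlap. Rows with no match could not be placed at a locus or checked for overlaps. Each mean was divided by the length of the union of exons. Alternatives were other lengths, a minimum mean of 10, genes of the same type and genes of at least 500 exonic bases. Values moved by more than 1.5 times were marked. Length and word counting were tested on made-up input. Named were the 6 genes, YTHDC1, the 3 highest genes per kilobase of each list, listed genes with no row and genes whose exons overlap a member. Some genes this rule names are not reported here. MT-CO1, CDH1, EPCAM and the neighbours at the NEAT1 locus were named after their values were seen. The genes and lists were chosen with earlier results of these data known. Python 3.11.15, numpy 2.4.6, pandas 2.3.3 and matplotlib 3.10.9 were used.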

Additional observations from a re-analysis of the deposited data

How the results depend on the processing

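Levels were recomputed with other lengths. Per kilobase of the median transcript, MALAT1 stood at 75312, NEAT1 at 19219, SFPQ at 7645, NONO at 1513, TUG1 at 385 and PSPC1 at 330. Per kilobase of the longest transcript the values moved for SFPQ (1311), NONO (852) and PSPC1 (227). With the canonical transcript, added after seeing the data, they moved for SFPQ (1416), NONO (1567) and PSPC1 (227). By rank, NEAT1 moved to place 114 and NONO to 503 with the longest transcript. Within its own gene type MALAT1 was at place 1 and NEAT1 at 3. A minimum mean of 10 and a minimum of 500 exonic bases moved no rank by more than 1.5 times. Among listed markers of blood, endothelial and muscle cells, 0 had a mean of at least 10.

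No paired analysis was possible because the table gives no value per library, and the 12 libraries enter only as 1 mean. The planned test with edgeR was not run, for want of counts per library here. For the same reason no fit with DESeq2, with a replicate block, with no filter on low counts or without each replicate was run. The precision of each mean and the depth behind it cannot be read from the table.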
